A study of Rattus norvegicus with 183 samples.

Results

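The genes described here encode collagen alpha chains and laminin chains, the main building blocks of the extracellular matrix and of basement membranes. They were taken by symbol from a table of 38354 genes: Col followed by a number, the letter a and a number, or Lama, Lamb or Lamc followed by a digit. Col1a1, Col1a2 and Col3a1 were left out because they serve as markers of meningeal fibroblasts. Of the 52 genes that match, 42 reached a mean of at least 1 on the log2(CPM + 1) scale over all libraries and are the members described below, among 15536 genes that passed the same filter. CPM is a gene's count scaled to a common library total. The lowest member inside this limit was Col7a1 with a mean of 1.28, and the highest genes outside it were Col6a6 with 0.76 and Col26a1 with 0.68.

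The libraries were made from polyA RNA of outbred heterogeneous stock rats, which descend from several inbred strains. The tissue was the posterior part of the ventral tegmental area, where dopamine neurons of the midbrain lie. The labels give no treatment, sex, age or batch, and every animal shares the tissue label. A total of 152 libraries have values, 63 with a decimal, 88 with a hexadecimal and 1 with another form of animal identifier, and 31 further samples are marked as removed. What the form of the identifier stands for is not stated, and it is the only label that divides the libraries. Each library is a dissected piece of tissue, so in every result below fewer cells of a type and less RNA per cell cannot be told apart.

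In the shallowest library 1 CPM stands for 15.2 estimated counts, in the median library for 24.3 and in the deepest for 57.2. Th, the gene of the rate-limiting enzyme of dopamine synthesis, was at least 577 CPM in 141 libraries (53 decimal, 87 hexadecimal, 1 other) and at most 3.47 CPM in the other 11 (10 decimal, 1 hexadecimal), which go against the tissue label. Correlations and tests below use the libraries with Th, and the fits use 140 of them because the library with the other identifier form was dropped. Of the 141 libraries with Th, 6 also hold over 100 CPM of Slc17a7, a marker of cortical glutamate neurons. No 2 libraries were identical (highest r between 2 libraries 0.9947), and 17 carry a note on relabelling.

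Collagens are built from alpha chains that wind around each other into a helix. Types V and XI join the fibrils of connective tissue, type IV forms the sheet-like network of basement membranes, and type VI forms beaded microfilaments. Laminins are cross-shaped molecules of an alpha, a beta and a gamma chain, and with collagen IV, nidogen and perlecan they make up basement membranes. In the brain, basement membranes surround the vessels and lie under the pia, the innermost of the meninges, whose fibroblasts also make fibrillar collagens. A few collagens, among them the transmembrane collagen gene Col25a1, are known from neurons.

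The members varied more between libraries than most genes of similar level. Over the 141 libraries with Th the median SD of a member was 0.52 log2 units, against 0.26 for all genes. After subtraction of the trend of SD on mean expression, 40 of the 42 members lay above the trend, against 48.6% of all genes, and the median member lay 0.24 above it. The exceptions were Col20a1, 0.06 below the trend (-0.06), and Col4a3 (-0.02). Col8a2 had the widest spread, with an SD of 1.21, followed by Col6a3 (0.99), Col6a2 (0.91) and Col6a1 (0.90). Col9a3 and Col20a1 had the narrowest, with an SD of 0.27 each. These figures describe the spread and were not tested.

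**Figure D1:**
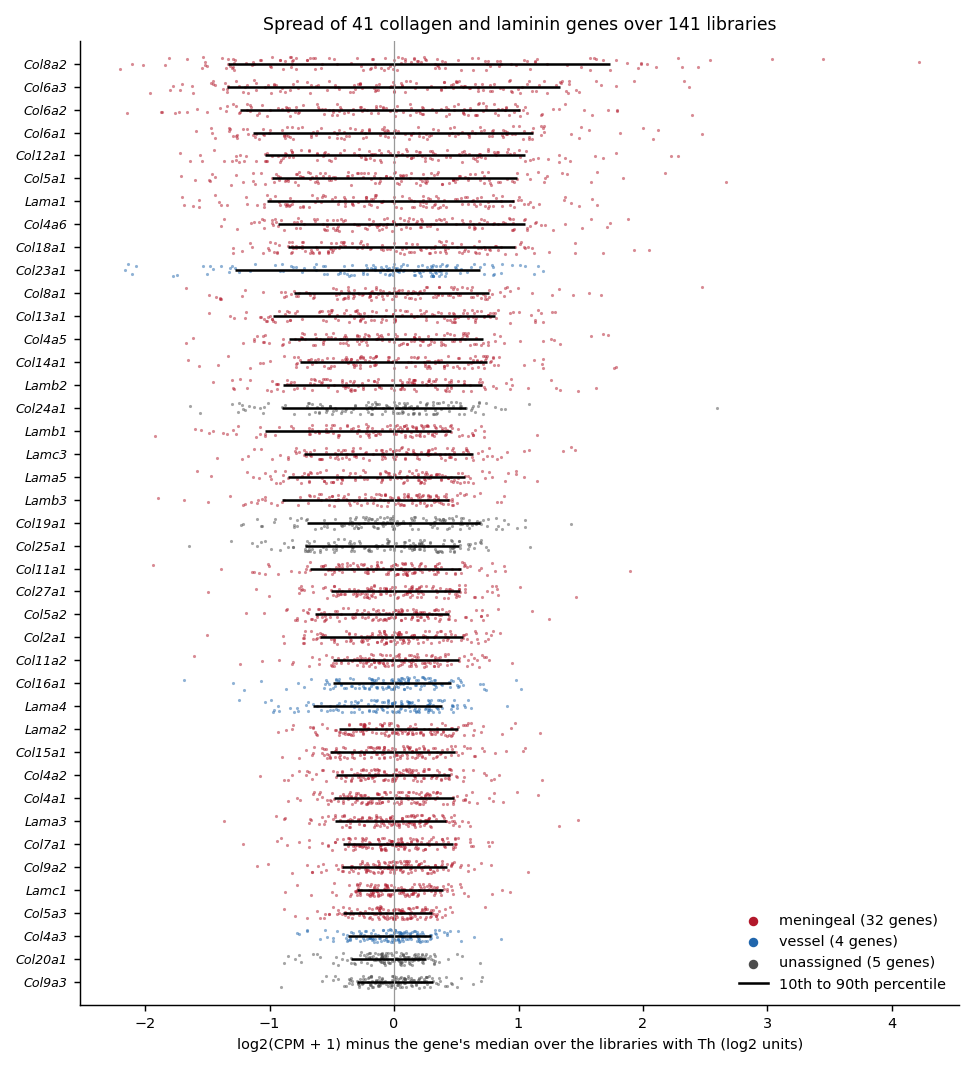
Each point is 1 of the 141 libraries with Th, for 41 members, placed on the x axis by its log2(CPM + 1) minus the median of that gene, and each row on the y axis is a gene, ordered by SD. Black bars span the 10th to the 90th percentile. Colour gives the reference with which the gene correlates best, and the rows at the top (Col8a2, Col6a3, Col6a2, Col6a1) are the widest.

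The members were sorted by their highest Pearson r with 3 reference scores, each the mean z-score of marker genes that are not members: a meningeal score (Col1a1, Col1a2, Col3a1, Dcn, Lum, Ogn, Slc22a6, Aldh1a2, Igf2), a vessel score of 15 endothelial and mural cell genes and a neuronal score of 7 genes found in neurons of all kinds. An r of at least 0.3 was required. This assigned 33 members to the meningeal score, 4 to the vessel score (Lama4, Col4a3, Col23a1, Col16a1) and 0 to the neuronal score, and left Col25a1, Col24a1, Col9a3, Col20a1 and Col19a1 unassigned. Just inside the limit were Col2a1 (r = 0.30 with the meningeal score) and Lamb3 (0.34), and just outside were Col20a1 (0.29) and Col19a1 (0.26 with the vessel score). All 42 correlations with the neuronal score were negative, that of Col25a1 being -0.07. The correlations are a description of the sorting and carry no test.

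The references are not independent of each other. Their scores correlated with r = 0.65 (meningeal and vessel), -0.55 (meningeal and neuronal) and -0.73 (vessel and neuronal) over the same libraries. For 14 of the 33 meningeal members the meningeal and vessel r differed by less than 0.1, as they did for 2 of the 4 vessel members. Col4a1 is an example, with 0.83 for the meningeal and 0.82 for the vessel score. The classes name only the best of these 3 references. Some members had a higher r with a cell type score outside the sorting, such as Col4a1 with smooth muscle (0.86). Lamb1 had 0.72 with the astrocyte score against 0.67 with the meningeal score, and Col23a1 0.58 against 0.51 with the vessel score. Others did not, such as Col6a1 (0.90 with smooth muscle, 0.97 with the meningeal score). The summed level of the meningeal markers ran from 61.1 to 4161 CPM (median 517), that of the vessel markers from 345 to 796 CPM (median 519) and that of the neuronal markers from 3809 to 7729 CPM (median 5398), and no marker of these lists was at 0 in a library with Th. The split also moved with its settings: at an r of at least 0.5 the unassigned rose to 14, with scaling by trimmed mean of M values (TMM) the vessel members were 2 and the unassigned 9, and with the 11 libraries that lack Th included the vessel members were 12.

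In an alternative chosen after the values were seen, the neuronal score was replaced by 7 scores for kinds of neuron (dopamine, GABA, Slc17a6-positive glutamate, cholinergic or motor, interpeduncular, serotonin and cortical). It moved 9 members to a neuronal class, among them Col25a1 (highest r 0.69, dopamine), Lamb3 (0.67), Col24a1 (0.53), Col2a1 (0.49), Col5a3 (0.44) and Col20a1 (0.34), all with the interpeduncular score except Col25a1, then Col19a1 (0.45, Slc17a6) and Col9a3 (0.30, serotonin). The meningeal members were then 29, the vessel members 4 and the unassigned 0. This class compares only the references used, and glial scores took no part in it. Col9a3 had a higher r with the oligodendrocyte score (0.39), and Col5a3 with that of oligodendrocyte precursors (0.51). Col20a1 had the same r with the astrocyte score (0.34). Col25a1, Lamb3, Col24a1, Col2a1 and Col19a1 had their highest r with a neuron type score.

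**Figure D2:**
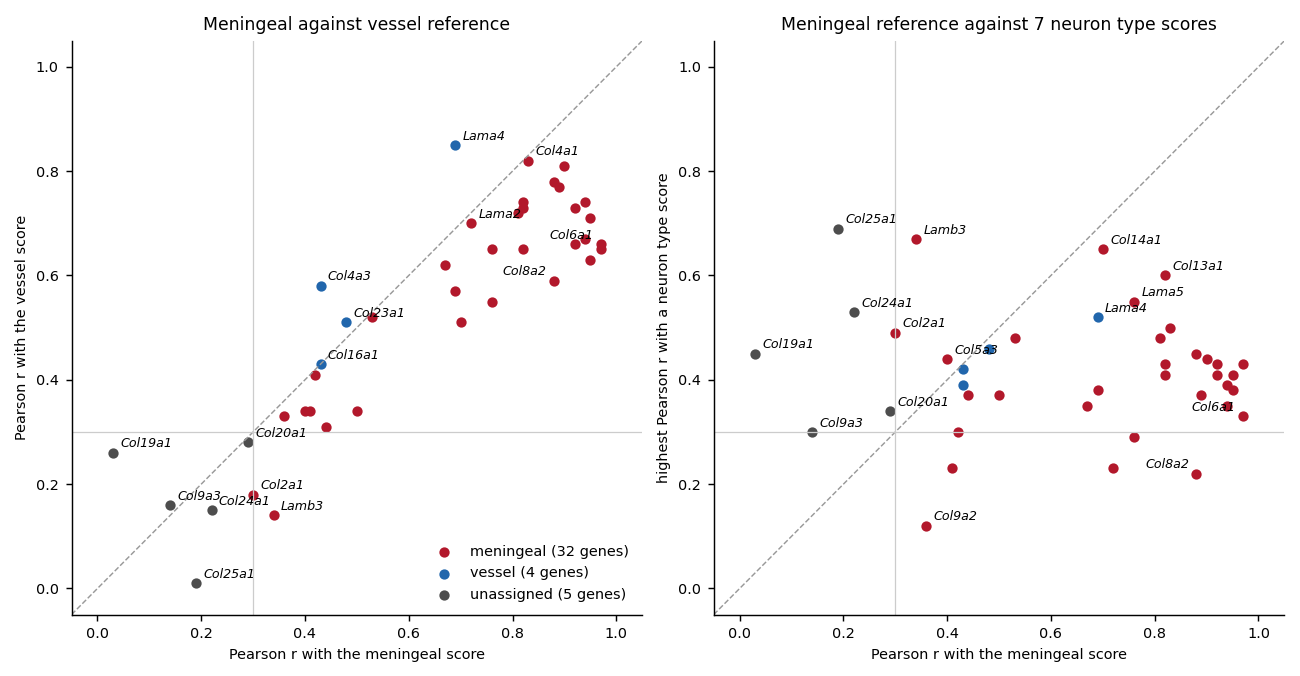
Each point is 1 of 41 members. The left panel plots its Pearson r with the vessel score against that with the meningeal score, and the right panel its highest r with any of 7 neuron type scores against that with the meningeal score, over 141 libraries. The dashed line marks equal r and the grey lines an r of 0.3; Lama4 (0.69 and 0.85) stands above the line on the left, and Col25a1, Lamb3, Col24a1 and Col19a1 stand above it on the right.

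Collagen IV comes as 3 pairs of genes that face each other head to head, and the pair on chromosome 16 encodes the chains present in nearly all basement membranes. Col4a1 (chr16:84885597-84996482, GRCr8) lay at 23.1 to 96.4 CPM with a median of 42.6, and Col4a2 (chr16:84749672-84885520) at 17.9 to 89.6 CPM with a median of 38.8. Col4a1 lay at 23.1 to 79.2 CPM (median 41.8) in decimal and 24.5 to 96.4 CPM (median 43.9) in hexadecimal libraries, ranges that overlap over most of their length. Col4a5 on the X chromosome, whose chain pairs with that of Col4a6 in the membranes around smooth muscle and some epithelia, ran from 4.85 to 60.4 CPM (median 17.7). Col4a6 ran from 0.801 to 16.4 CPM (median 3.72); it overlaps the protein-coding gene LOC103690888, and because no source used here states whether strand was used, its level is uncertain. Both X-linked genes followed the meningeal score (r = 0.89 and 0.94) more than the vessel score (0.77 and 0.67).

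The third pair was split by the filter. Col4a3 (4.02 to 14.6 CPM, median 7.61) passed and sorted with the vessel score (r = 0.58 against 0.43 for the meningeal score), whereas its partner Col4a4 did not pass (0 to 1.49 CPM, median 0.497). The starts of the pairs lie 76 bases apart for Col4a2 and Col4a1, 412 for Col4a4 and Col4a3 and 1263 for Col4a6 and Col4a5, by the RefSeq gene ends of GRCr8. The region between the starts of Col4a2 and Col4a1 is shown because these chains moved together most closely among the pairs of this family, and the stretch before Col4a3 because only 1 side of its pair passed the filter. Capitals mark a GC box (GGGCGG or its complement), and both are given on the + strand, 5′ to 3′, from RefSeq.
Col4a2 to Col4a1 (chr16:84885521-84885596): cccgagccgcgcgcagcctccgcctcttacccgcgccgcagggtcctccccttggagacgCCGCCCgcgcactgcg
Col4a3 (chr9:91323740-91323989): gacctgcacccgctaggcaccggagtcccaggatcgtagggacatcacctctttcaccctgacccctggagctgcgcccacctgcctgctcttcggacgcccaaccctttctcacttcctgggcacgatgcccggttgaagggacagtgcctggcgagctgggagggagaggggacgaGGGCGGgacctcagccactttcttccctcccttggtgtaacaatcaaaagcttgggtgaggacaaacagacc

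The region between Col4a2 and Col4a1 is 78.9% G and C and holds 1 GC box on the opposite strand, and the stretch before Col4a3 holds 1 on the given strand. Over the 34 members with a promoter in the table (250 bases before to 50 after the start), 23 (67.6%) hold a GC box on either strand, against 33.1% of all 33469 promoters. CCAAT was in 8 (23.5%, against 37.5%) and TATAAA in 2, Col13a1 and Lama4 (5.88%, against 14.2%). The 2 sets are unlike: each member counts once and passed the filter, whereas the 33469 promoters include those of genes that did not pass. These are matches of letters and were not tested. The other 8 members had no entry.

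Among the laminin alpha chains, Lama4, a chain of vascular laminin, was the member closest to the vessel score (r = 0.85), with 4.48 to 23.4 CPM and a median of 12.0. Lama5, the alpha chain found with it in endothelial membranes and also in epithelia, lay at 5.87 to 44.5 CPM (median 19.6) and sorted with the meningeal score (r = 0.76 against 0.65). Lama2, the alpha chain of muscle and of the membrane that astrocyte endfeet lay down, lay at 6.33 to 30.5 CPM (median 13.0), with r of 0.72 and 0.70. Lama1, known from the pial membrane, ran from 1.07 to 20.0 CPM (median 5.76) and followed the meningeal score most closely of the 5 (r = 0.92). Lama3, the alpha chain of epithelial laminin, ran from 1.99 to 20.5 CPM (median 6.73) and followed it least (r = 0.44).

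The beta and gamma chains all sorted with the meningeal score, but with unlike r. Lamb2 (18.4 to 163 CPM, median 52.1), Lamc1 (25.7 to 92.6 CPM) and Lamc3 (3.93 to 35.2 CPM, median 12.2) had r of 0.90, 0.82 and 0.88 with the meningeal score. Lamb1 (2.38 to 27.5 CPM, median 11.8) had 0.67. Lamb3, which joins Lama3 in the laminin of skin and other epithelia, had only 0.34. Lamb3 ran from 4.21 to 34.8 CPM (median 18.4). The bases before the start of Lamb3 (chr13:107362303-107362513, + strand, RefSeq GRCr8) are shown because Lamb3 stood apart from the other laminins; capitals mark CCAAT.
Lamb3: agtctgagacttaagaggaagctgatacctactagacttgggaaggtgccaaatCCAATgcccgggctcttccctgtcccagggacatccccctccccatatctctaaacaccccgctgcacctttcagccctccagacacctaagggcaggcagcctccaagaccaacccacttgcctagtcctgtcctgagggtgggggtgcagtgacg

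Collagen VI, the microfilament collagen of connective tissue, held the members closest to the meningeal score. Col6a1 (4.88 to 97.7 CPM, median 16.7) and Col6a2 (4.70 to 132 CPM, median 24.3) each had r = 0.97, and Col6a3 (0.678 to 32.6 CPM, median 5.52) had 0.95. The highest library of Col6a3 was 48.1 times the lowest, and for Col6a2 28.0 times. Of genes that are not members, those nearest to Col6a1 were Col1a1 (r = 0.967), Vim (0.966) and Col3a1 (0.962); Col1a1 and Col3a1 are part of the score itself. Col6a4, Col6a5 and Col6a6 did not pass the filter. The bases before Col6a1 (chr20:11905440-11905689, + strand, RefSeq GRCr8) are shown beside those of collagen IV; they hold none of the 3 motifs, so no letter is in capitals.
Col6a1: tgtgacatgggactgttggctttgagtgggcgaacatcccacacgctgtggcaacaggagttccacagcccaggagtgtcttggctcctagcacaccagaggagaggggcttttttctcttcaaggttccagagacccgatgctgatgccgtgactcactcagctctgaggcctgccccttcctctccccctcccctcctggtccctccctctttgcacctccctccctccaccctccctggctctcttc

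The fibrillar collagens ran from close to the meningeal score to barely related to it. Col5a1 (2.13 to 64.2 CPM, median 9.24), a chain that nucleates collagen I fibrils, had r = 0.92, and its partner Col5a2 (9.31 to 54.8 CPM, median 22.5) had 0.82. Col11a2 (24.5 to 148 CPM, median 76.4) had 0.53, Col27a1 (2.78 to 28.4 CPM, median 9.69) 0.50, Col11a1 (0.375 to 18.7 CPM, median 4.28) 0.41 and Col5a3 (15.0 to 47.9 CPM, median 28.5) 0.40. Col2a1, the cartilage collagen, had 0.30 (0.535 to 6.84 CPM, median 3.35) and Col24a1 0.22 (0.214 to 21.8 CPM, median 2.78). The highest values of Col24a1, Col11a1 and Col27a1 all came from 1 hexadecimal library, replicate 11. It lay 1.51 log2 units above the next library for Col24a1 and 1.00 above it for Col11a1. The noncoding RNA Meg3 was among the 3 nearest genes of Col11a1 (r = 0.739), Col24a1 (0.743) and Col2a1 (0.758).

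Among the fibril-associated collagens, which decorate the surface of fibrils, Col12a1 was nearest to the meningeal score (r = 0.95; 3.42 to 69.6 CPM, median 13.6) and Col14a1 had 0.70 (1.02 to 20.8 CPM, median 5.34). Col16a1 (7.49 to 54.4 CPM, median 26.4) had 0.43 with both the meningeal and the vessel score and was sorted to the latter by a difference smaller than the rounding. Col9a2 (4.80 to 25.1 CPM, median 11.4) had 0.36 and Col9a3 (12.0 to 38.9 CPM, median 23.5) only 0.14. The genes nearest to Col9a3 were Plxnb3 (r = 0.685) and Plekhg3 (0.661). Col19a1, known from subsets of neurons, lay at 2.02 to 17.9 CPM (median 6.07), with r = 0.03 with the meningeal score. Its nearest gene was the calcium release channel gene Ryr2 (r = 0.803). Col20a1 (1.56 to 6.65 CPM, median 3.73) overlaps the nicotinic receptor gene Chrna4, and its level is uncertain in the same way.

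Of the transmembrane collagens, Col13a1 (0.644 to 10.2 CPM, median 3.60), known from the neuromuscular junction, followed the meningeal score with r = 0.82. Col23a1 (0.708 to 16.5 CPM, median 6.65) had 0.48 and, with the vessel score, 0.51. Col25a1 (chr2:221429378-221828536, GRCr8), whose product is found in amyloid plaques and is needed by motor axons to reach muscle, ran from 31.1 to 214 CPM (median 99.6) and had r = 0.19. The genes nearest to it were Cntnap4 (r = 0.865), Gpr161 (0.849) and Ret (0.843), a receptor gene of midbrain dopamine neurons.

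The remaining members sorted with the meningeal score. Col18a1, the source of endostatin and a proteoglycan of basement membranes, had r = 0.94 (8.00 to 90.5 CPM, median 21.1), and its relative Col15a1 had 0.69 (1.49 to 8.66 CPM, median 3.65). Col8a2, a network collagen of the corneal endothelium, had 0.88 and ran from 0.166 to 99.1 CPM (median 4.37). Its nearest genes were Slc13a4 (r = 0.945), Thbd (0.927) and Bmp7 (0.923). Col8a1 (1.16 to 37.1 CPM, median 5.87) had 0.76, and Col7a1, of the anchoring fibrils of skin, had 0.42 (0.0535 to 3.22 CPM, median 1.45). CPM is not corrected for transcript length, so these levels are not compared between genes.

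Chains that assemble into the same molecule, or whose genes are neighbours, were compared as pairs. Of 17 pairs listed, 15 could be tested; in the other 2 (Col4a3 with Col4a4, Col9a1 with Col9a2) a partner did not pass the filter. Each of the 15 had a permutation p of 1e-05 for r and for Spearman's rho, the smallest that 100000 permutations can give, also after Benjamini-Hochberg adjustment over the pairs. All 15 also passed when the slopes of every gene on every member were fitted with limma and adjusted together, each with a positive slope, but so did 46.9% of all such combinations, while 19.0% were called with a negative one. The rank of the partner among the other 15535 genes separates the pairs better.

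Col6a1 and Col6a2 were each other's nearest gene (r = 0.970, rho = 0.975), with r = 0.968 in decimal and 0.971 in hexadecimal libraries and 0.967 without the 2 libraries farthest from the median. Col4a1 and Col4a2 were also each other's nearest (r = 0.917, rho = 0.921; 0.930 decimal, 0.914 hexadecimal, 0.907 without 2). Col11a2 was the nearest gene to Col11a1 (r = 0.745, rho = 0.740), and Col11a1 ranked 54 for Col11a2. Col4a5 and Col4a6 had a higher r of 0.893 but ranked 35 and 63 for each other, among many genes that follow the meningeal score.

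Among the laminin pairs, Lamb2 and Lamc1 had r = 0.867 (ranks 141 and 10), Lama1 and Lamc1 0.830 (ranks 173 and 54) and Lama2 and Lamb2 0.801 (Lamb2 ranked 10 for Lama2). Lama5 and Lama4 had r = 0.778 and 0.757 with Lamc1. Lamb1 and Lamc1, which lie in the same laminins, had r = 0.642 and ranked 1999 and 933. Lama3 and Lamb3, chains of one epithelial laminin, had r = 0.429 (0.336 decimal, 0.481 hexadecimal, 0.409 without 2) and ranked 2292 and 2145. Of the other collagen pairs, Col5a1 and Col5a2 had r = 0.832 (ranks 187 and 92), Col8a1 and Col8a2 0.788 (ranks 8 and 195) and Col9a2 and Col9a3 0.450 (ranks 59 and 120).

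**Figure D3:**
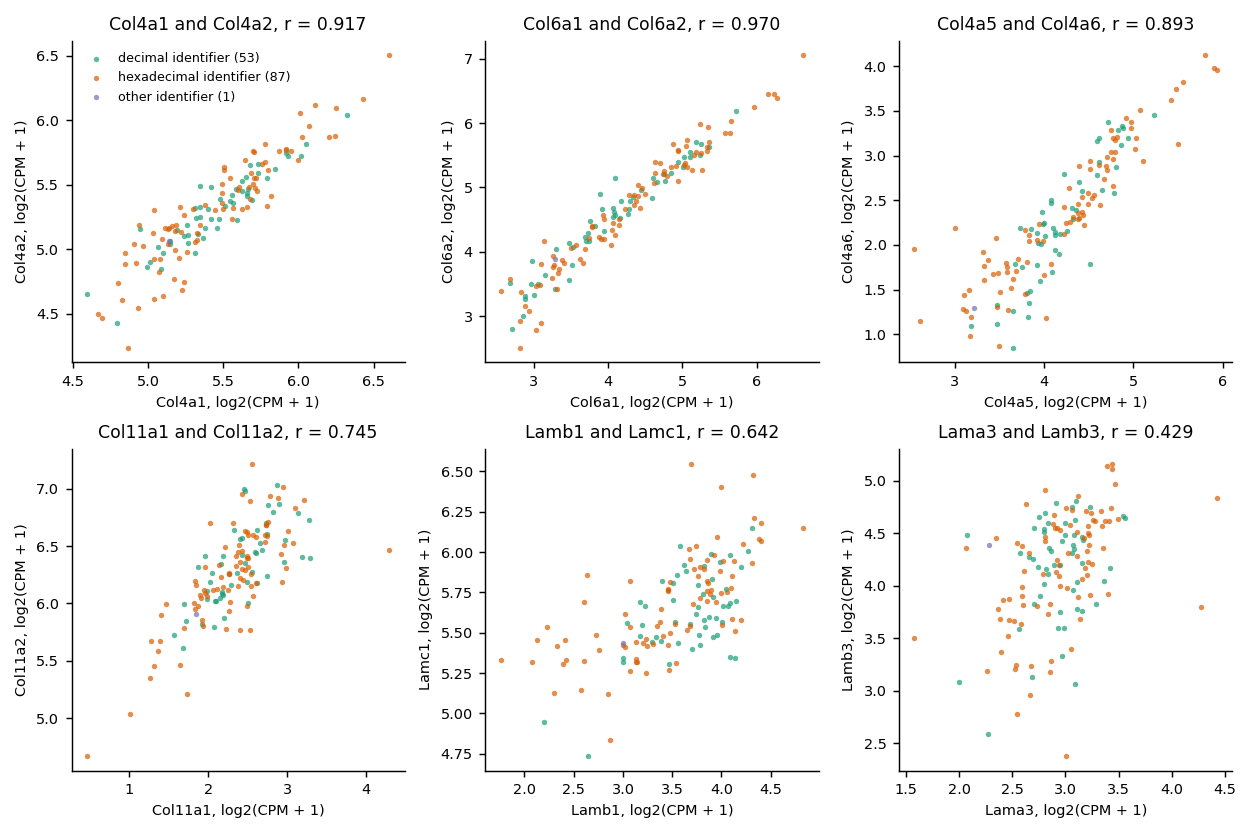
Each panel plots the log2(CPM + 1) of 1 chain against that of its partner, with a point for each of the 141 libraries with Th, coloured by identifier format. The points of Col4a1 with Col4a2 and Col6a1 with Col6a2 lie along a line (r = 0.917 and 0.970), and those of Lama3 with Lamb3 scatter widely (r = 0.429).

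Scores for 14 cell types took no part in the sorting by the 3 reference scores, and the members were tested on them with limma over all genes, with identifier format as a covariate. The alternative sorting did use the 7 neuron type scores, so for the members it moved, r and slope on those scores describe the same relation. Slopes are in log2 units per SD of the score. A score holds only those of its listed markers that passed the filter, whereas summed levels cover all listed markers. This left 2 of 5 choroid plexus, 2 of 3 serotonin, 4 of 6 cholinergic or motor, 5 of 6 cortical and 3 of 4 peripheral nerve markers. All markers of the other cell types passed. Most members were higher in libraries with more smooth muscle and astrocyte marker RNA. On the smooth muscle score (Acta2, Myh11, Tagln, Cnn1; summed level 42.2 to 1020 CPM) 40 of 42 members rose and 0 fell, against 50.8% and 19.9% of all genes. The largest slopes were those of Col8a2 (0.95, SE 0.06, adjusted p = 5.93e-30), Col6a3 (0.83, SE 0.04) and Col6a2 (0.82, SE 0.03). The median member had a slope of 0.31 against 0.04 for all genes. Col25a1 (0.09, adjusted p = 0.0553) and Col19a1 (0.04, adjusted p = 0.421) did not pass.

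On the astrocyte score (summed level 2411 to 9264 CPM) 39 members rose and 0 fell, against 54.5% and 23.1% of all genes, led by Col8a2 (0.71, SE 0.08). The members that did not pass were Col9a2 (0.06), Col9a3 (0.03) and Col19a1 (-0.02). With the 3 reference scores as covariates only 10 rose and 5 fell, against 33.2% and 15.7% of all genes. The slope differed between the identifier formats by an interaction term for 6 members on the astrocyte score (28.0% of all genes) and for 4 on the smooth muscle score (15.1%), for example Lama4, with 0.17 in decimal and 0.36 in hexadecimal libraries on the astrocyte score. On the score of oligodendrocyte precursors 38 rose and 0 fell (43.3% and 21.5% of all genes), again led by Col8a2 (0.43, SE 0.10), and with the reference scores 9 rose and 2 fell (18.2% and 15.5%). On the scores of peripheral nerve and of erythrocytes 35 and 34 rose and none fell, against 24.9% and 7.94%, and 24.7% and 8.41%, of all genes. On the GABA neuron score 39 rose and 0 fell (50.8% and 20.2% of all genes), and the largest slope was that of Col13a1 (0.36, SE 0.05); with the reference scores 16 rose and 4 fell (30.5% and 11.9%).

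Oligodendrocyte markers (summed level 18488 to 47932 CPM) ran the other way. On that score 34 members fell and 1 rose, against 34.8% and 15.1% of all genes. Col6a3 had the largest decrease (-0.53, SE 0.07, adjusted p = 2.60e-10), and Col9a3 was the member that rose (0.10, SE 0.02, adjusted p = 4.69e-05). With the reference scores as covariates 12 fell and 2 rose (13.6% and 10.9% of all genes), and Col6a3 had -0.09. On Slc17a6, the transporter gene of subcortical glutamate neurons, 30 fell and 1 rose (37.9% and 15.1% of all genes). Col6a2 had the largest decrease (-0.35, SE 0.07), and Col19a1 was the member that rose (0.22, SE 0.04, adjusted p = 6.02e-07). After adjustment for the reference scores 6 fell and 7 rose (27.4% and 19.9%), and Col6a2 had -0.05 (adjusted p = 0.0619), whereas Col19a1 had 0.28.

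**Figure D4:**
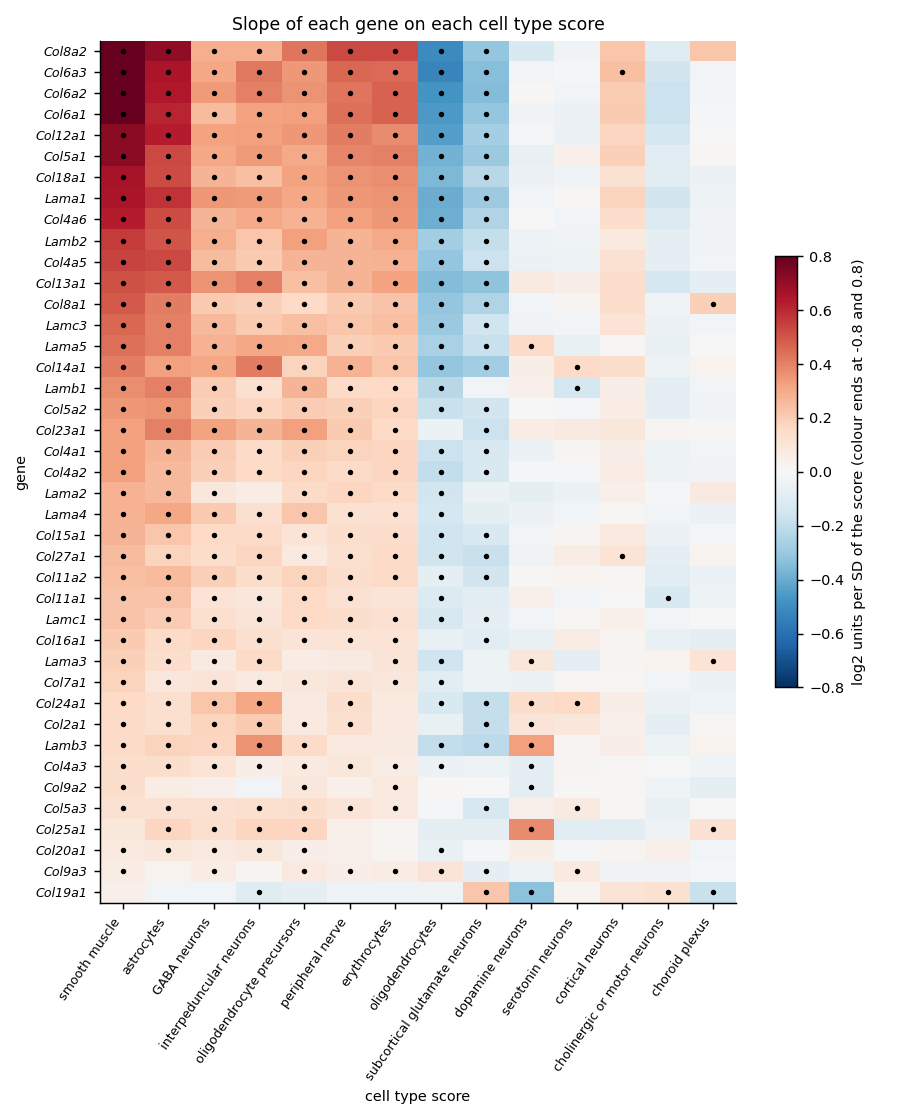
Rows are 41 members, ordered by their slope on the smooth muscle score, and columns are the 14 cell type scores. Colour is the slope in log2 units per SD of the score, and a dot marks an adjusted p under 0.05. Red fills the left columns for nearly all rows, and Col25a1, Lamb3 and Col19a1 near the bottom stand out in the dopamine neuron column.

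The scores move together with the references: over the same libraries the smooth muscle score correlated with the meningeal score at r = 0.90 and the astrocyte score at 0.69. With the 3 reference scores as covariates, 5 members still rose with the smooth muscle score and 0 fell, against 0.721% and 0.0193% of all genes: Col4a2 (0.23, SE 0.04, adjusted p = 2.53e-06), Col5a1 (0.22), Col6a2 (0.18), Col18a1 (0.18) and Col4a1 (0.16, SE 0.03, adjusted p = 5.75e-05). On the peripheral nerve and erythrocyte scores no member then passed in limma (2 and 2 at an unadjusted p under 0.05). The background there was 0.0644% and 0.00644%, and 0.0901% and 0%, of all genes.

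On the dopamine neuron score (Th, Slc6a3, Slc18a2, Ddc, En1, Dlk1, Slc10a4; summed level 1644 to 8402 CPM) 6 members rose and 4 fell, shares close to the 15.2% and 13.4% of all genes. Within them, Col25a1, Lamb3 and Col19a1 had slopes at least as large as any of their own on the other scores except that Lamb3 rose by 0.36 with the interpeduncular score. Col25a1 lay at 46.9 to 169 CPM (median 106) in decimal and 31.1 to 214 CPM (median 95.8) in hexadecimal libraries. It rose by 0.38 per SD of the score (SE 0.03, adjusted p = 3.49e-23), with 0.40 within decimal and 0.37 within hexadecimal libraries. Lamb3 lay at 5.02 to 27.0 CPM (median 18.4) and 4.21 to 34.8 CPM (median 18.0) and rose by 0.33 (SE 0.04, adjusted p = 4.45e-14), with 0.41 and 0.29 within the formats. Col19a1 lay at 2.02 to 13.7 CPM (median 7.08) and 2.04 to 17.9 CPM (median 5.70) and fell by 0.33 (SE 0.03, adjusted p = 7.24e-16), with -0.26 and -0.38 within the formats. The identifier formats overlapped widely for all 3 genes. Their slopes did not differ between formats by a test of the difference at an adjusted p under 0.05. The same held for every gene on this score, as 0 of 15536 were called.

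The other members called on the dopamine score had small slopes. Lama5 (0.15), Col24a1 (0.14), Col2a1 (0.10) and Lama3 (0.09) rose, but with TMM scaling their adjusted p was 0.0835, 0.119, 0.112 and 0.133. Col9a2 (-0.08) and Col4a3 (-0.07) fell. Col9a2 had an adjusted p of 0.0566 with no filter on low values and of 0.231 and 0.148 within decimal and hexadecimal libraries. Col4a3 had -0.02 with the reference scores (adjusted p = 0.388) and -0.02 in hexadecimal libraries (adjusted p = 0.728). Without the 6 libraries that also hold Slc17a7, Lamb3 rose by 0.40. With the reference scores as covariates, 14 members rose and 3 fell on the dopamine score, against 31.4% and 19.2% of all genes, and Col25a1 (0.42, SE 0.03), Lamb3 (0.37, SE 0.04), Lama5 (0.25, SE 0.02) and Col19a1 (-0.34, SE 0.04) led in their directions.

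**Figure D5:**
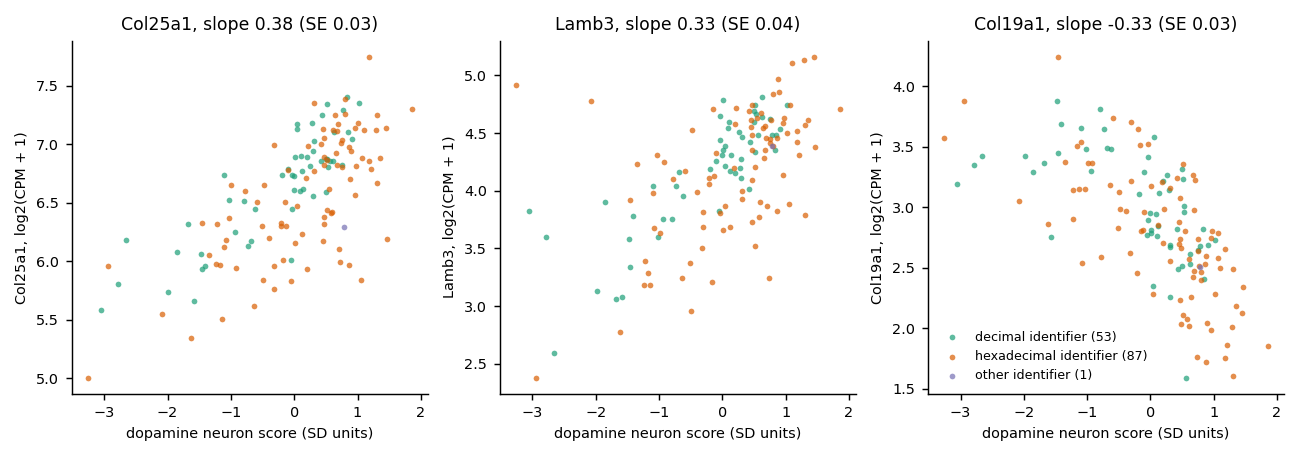
Each panel plots the log2(CPM + 1) of a gene against the dopamine neuron score in SD units, with a point for each of the 141 libraries with Th, coloured by identifier format. Col25a1 and Lamb3 rise (slopes 0.38 and 0.33) and Col19a1 falls (-0.33).

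The interpeduncular score (Chrna2, Chrna3, Chrnb4; summed level 7.34 to 196 CPM, Chrna2 at 0 in 1 library) rests on nicotinic receptor genes of the nucleus that borders the dissected region. On it 37 members rose and 1 fell, against 46.8% and 18.3% of all genes. Col6a3 (0.42, SE 0.07), Col14a1 (0.41, SE 0.04), Col13a1 (0.40, SE 0.05), Col6a2 (0.40, SE 0.07) and Lamb3 (0.36, SE 0.03, adjusted p = 5.35e-18) had the largest slopes, and Col19a1 fell (-0.10, SE 0.04, adjusted p = 0.0363). With the reference scores as covariates 15 rose and 4 fell (30.8% and 14.6% of all genes). Lamb3 then kept 0.35 (SE 0.04), Col24a1 had 0.29 (SE 0.05) and Col14a1 0.27 (SE 0.03), whereas Col6a2 and Col6a3 had 0.07 each. The interpeduncular score correlated with the dopamine score at r = 0.39 and with the meningeal score at 0.38. No fit held the interpeduncular and dopamine scores together, so the slopes of Lamb3 on them were not separated.

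On the remaining scores few members passed. Serotonin neuron markers, at 0.197 to 254 CPM in sum with Fev at 0 in 30 libraries and Slc6a4 at 0 in 5, gave 4 members higher and 1 lower, against 7.07% and 5.77% of all genes; Col24a1 rose most (0.16, SE 0.05) and Lamb1 fell (-0.14, SE 0.05). Adjusted for the reference scores, 2 were higher and 6 lower (11.0% and 10.3%). The cholinergic or motor score gave 1 higher, Col19a1 (0.12, SE 0.04), and 1 lower, Col11a1 (-0.12, SE 0.04), against 5.12% and 9.76%; with the reference scores neither passed, and Col5a1 (0.07) alone was called, for 1 higher and 0 lower (6.32% and 9.34%). Cortical neuron markers (4.99 to 1140 CPM) gave 3 higher and 0 lower, against 6.23% and 1.25%, among them Col6a3 (0.24, SE 0.08) and Col27a1 (0.11, SE 0.04). Without the 6 libraries with Slc17a7, Col27a1 had 0.10 (adjusted p = 0.0546). With TMM scaling the adjusted p of Col6a3 was 0.130 and that of Col27a1 0.122. In the fit with the reference scores 1 member was higher and 1 lower (4.35% and 1.46%), Col6a3 had 0.01 and did not pass, and Col27a1 had 0.07 (adjusted p = 0.209).

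The choroid plexus score gave 3 higher and 2 lower, against 4.05% and 11.0% of all genes, but it rests on only 2 of 5 listed markers. Summed over all 5, 1 hexadecimal library, replicate 75, held 12293 CPM, and the next highest held 104. Col8a1 (0.19), Col25a1 (0.12) and Lama3 (0.11) rose, and Col19a1 (-0.18) was among those that fell. Without that library, left out after the values were seen, Col8a1 had 0.09 (adjusted p = 0.508), Lama3 0.01 (0.901) and Col19a1 -0.10 (0.220), and Col25a1 had 0.15 (0.0495). Without the 6 libraries with Slc17a7, Col25a1 had 0.09 (adjusted p = 0.150). The fit with the reference scores gave 4 higher and 2 lower (2.69% and 5.89%).

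Few members were called between the identifier formats. Of the 42, 0 were higher in hexadecimal libraries and 3 were lower by limma, against 14.3% and 23.7% of all genes, and 5 had an unadjusted p under 0.05 in either direction. The members also had a larger median SD (0.52 against 0.26 for all genes), and whether this bears on the number of calls was not tested. Medians in decimal and hexadecimal libraries were 3.52 and 4.90 CPM for Col8a2, which was not called. Summed levels had medians of 423 and 662 CPM for the meningeal markers and 587 and 570 CPM for the meningeal members. Col23a1 had a median of 7.80 CPM (1.69 to 16.1) in decimal and 6.36 CPM (0.708 to 16.5) in hexadecimal libraries and was 0.40 log2 units lower (-0.40, SE 0.12, adjusted p = 0.00611). Col19a1 was lower by 0.27 (-0.27, SE 0.09, adjusted p = 0.0119) and Col16a1 by 0.18 (-0.18, SE 0.07, adjusted p = 0.0335). The ranges of the formats overlapped for each. With the reference scores as covariates, Lamb1 (-0.25, SE 0.07, adjusted p = 0.00421) and Col20a1 (-0.11, SE 0.05, adjusted p = 0.0483) joined them, for 0 higher and 5 lower against 12.0% and 21.2%. With the 11 libraries that lack Th included, 10 of which are decimal, Col16a1 had a difference of 0.00 (adjusted p = 0.986), and without the 6 libraries with Slc17a7 it had -0.16 (adjusted p = 0.0721). What else differed between the formats cannot be told apart from them.

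Other genes of matrix assembly, from 4 lists, were fitted jointly on the 3 reference scores. Of 50 genes tested, 40 rose and 2 fell with the meningeal score (26.0% and 11.3% of all genes). With the vessel score 21 rose and 1 fell (25.9% and 10.0%), and with the neuronal score 1 rose and 17 fell (12.5% and 16.4%). Within decimal and within hexadecimal libraries alone, 12 and 10 rose with the vessel score, and 2 and 16 fell with the neuronal score. The meningeal score itself holds collagen I and III genes, so genes that process or bind these collagens are measured here against their substrate.

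Among the partners of laminin and collagen IV in basement membranes, 9 of 10 rose with the meningeal score and 5 of 10 with the vessel score. The shares of all genes were 26.0% and 25.9%. Hspg2, which encodes perlecan, had a slope of 0.58 (SE 0.03) with the meningeal and 0.13 (SE 0.03) with the vessel score, Nid2 had 0.49 and 0.05 and Nid1 0.44 and 0.03, the vessel slopes of both nidogens not passing. Sparc, a collagen-binding protein gene, had 0.04 (adjusted p = 0.0884). Of 10 matrix receptors tested, 8 rose and 1 fell with the meningeal score (26.0% and 11.3% of all genes). Itgb4 (0.78, SE 0.05) and the collagen receptor gene Ddr2 (0.72, SE 0.03) had the largest slopes, and Ddr1, a related receptor, fell (-0.05, SE 0.02, adjusted p = 0.025). The laminin receptor integrin gene Itga6 rose with the vessel score (0.11, SE 0.02) and had 0.01 with the meningeal score.

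Of 23 enzymes and helpers of collagen processing, 19 rose and 1 fell with the meningeal score, against 26.0% and 11.3% of all genes. With the vessel score 6 rose and 1 fell, against 25.9% and 10.0%, so the share that rose was near that of all genes. Pcolce, which speeds the trimming of procollagen, had the largest slope (1.01, SE 0.03), followed by the crosslinking enzyme genes Lox (0.59, SE 0.04), Loxl1 (0.58, SE 0.04) and Loxl2 (0.41, SE 0.04). The collagen chaperone gene Serpinh1 had 0.31 (SE 0.02). Colgalt2, which adds galactose to collagen, fell with the meningeal score (-0.07, SE 0.03, adjusted p = 0.020) and rose with the vessel score (0.17, SE 0.03). Of 7 genes of matrix breakdown and its inhibitors, 4 rose with the meningeal score (26.0% of all genes): Timp1 (0.49, SE 0.04), Mmp14 (0.44, SE 0.05), Timp3 (0.40, SE 0.02) and Mmp2 (0.13, SE 0.03).

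The genes that did not pass the filter were Col4a4, Col6a4, Col6a5, Col6a6, Col9a1, Col10a1, Col17a1, Col22a1, Col26a1 and Col28a1. In libraries with Th their medians lay between 0.0433 CPM (Col6a5) and 0.572 CPM (Col6a6), and each was at 0 in at least 1 library. The highest value was that of Col6a6, 4.37 CPM.

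In the 11 libraries that lack Th, members are given as values only. Their cortical neuron markers summed to 2315 to 2570 CPM and their oligodendrocyte markers to 1467 to 5044 CPM. Lamb3 lay at 0.927 to 2.16 CPM (4.21 to 34.8 with Th), Col9a3 at 3.22 to 5.50 CPM (12.0 to 38.9), Col19a1 at 23.4 to 32.7 CPM (2.02 to 17.9) and Lamb1 at 25.2 to 38.2 CPM (2.38 to 27.5). Col25a1 lay at 53.8 to 69.1 CPM, inside its range in the other libraries. Col4a1 (26.4 to 37.6 CPM) and Col4a2 (32.0 to 50.3 CPM) also lay inside theirs. Summed over the meningeal members, these libraries held 360 to 455 CPM, against 278 to 1498 CPM in the libraries with Th.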

How the data were processed

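The authors estimated expression with kallisto 0.48, per the submitters' processing notes; the genome build and strandedness are not given in the sources used here. The deposited values are on a log2 scale and were taken, from the values themselves, as log2(estimated count + 1): totals after back-transformation differ between libraries, and among values under 100 a share of 55.7% is whole to a tolerance of 0.001. They were back-transformed, expressed as CPM and as log2(CPM + 1), and genes with a mean of at least 1 over all 152 libraries were kept. The estimated counts are not stored as counts, so limma 3.58.1 (R 4.3.3) was fitted over all genes, with Benjamini-Hochberg adjustment and a threshold of 0.05. The fitting was tested on simulated data. Correlations used Python 3.11.15 and numpy 2.4.6.

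The members and lists were chosen with earlier results of these data known. Named genes are every member, genes of the fixed lists, the 3 non-member genes nearest to each member by r, and the members with the largest slopes in each fit. The position in the table was an end of the RefSeq GRCr8 gene for all 52 genes; 21 of the 42 members overlap another gene there and 2 a protein-coding one. Libraries are 1 per sample label, and no source says that each is a different animal beyond its identifier, so p-values measure the spread between these libraries. 1 CPM stands for 15.2 to 57.2 counts, which sets the precision of low values. Alternatives were TMM scaling, other filters and pseudocounts, ranks, each format alone, other sets of libraries and reference scores as covariates. Of the members, 1 is counted but not reported by name here, and it is left out of the figures.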

Additional observations from a re-analysis of the deposited data

Results flagged for a closer look

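For 10 combinations of member and cell type score the slope differed between the identifier formats by an interaction term (limma, Benjamini-Hochberg over all genes), the slope being larger in hexadecimal libraries in each. On the astrocyte score, where 28.0% of all genes differed in this way, hexadecimal minus decimal was 0.31 for Col25a1 (SE 0.09, adjusted p = 0.00934; -0.07 decimal, 0.24 hexadecimal), 0.31 for Lamb3 (SE 0.10; -0.06 and 0.25), 0.33 for Col23a1 (0.15 and 0.48), 0.23 for Lama5 (0.22 and 0.45), 0.20 for Lamb1 (0.25 and 0.45) and 0.19 for Lama4 (SE 0.05, adjusted p = 0.00266; 0.17 and 0.36).

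On the smooth muscle score, where 15.1% of all genes differed, hexadecimal minus decimal was 0.20 for Col4a5 (0.39 and 0.60), 0.18 for Lama5 (0.31 and 0.49), 0.18 for Lama4 (0.15 and 0.33) and 0.17 for Lamb2 (0.44 and 0.61).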

How the results depend on the processing

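All 15 tested pairs passed under every alternative run. With TMM scaling, calls over the 14 cell type scores went from 281 to 223 higher and from 73 to 91 lower. The median slope over all genes then went from 0.053 to 0.009 on the astrocyte score. On the dopamine neuron score it went from -0.002 to -0.006. With the reference scores as covariates, the calls went from 281 to 86 higher and from 73 to 45 lower. The share of all genes called higher changed too. It went from 50.8% to 0.721% on the smooth muscle score and from 15.2% to 31.4% on the dopamine neuron score. Members lower in hexadecimal libraries went from 3 to 5, and all genes from 23.7% to 21.2%. With all libraries included, members higher and lower between formats were 6 and 5, without a share of all genes at hand. Col16a1 was then at 0.00, and the split gave 12 vessel, 1 neuronal and 3 unassigned members. The split gave 2 vessel and 9 unassigned members with TMM scaling, 2 vessel members with ranks, 1 neuronal member in decimal libraries, 14 unassigned at an r of at least 0.5, and 9 neuronal and 0 unassigned with the neuron type scores, chosen after seeing the data. Of the matrix genes on the 3 references, the 21 higher with the vessel score were 12 in decimal and 10 in hexadecimal libraries, and the 17 lower with the neuronal score were 2 in decimal libraries. The 2 lower with the meningeal score were 1 without the libraries with Slc17a7, in hexadecimal libraries, with ranks and without the library richest in choroid plexus markers (added after seeing the data), and 0 in decimal libraries. The 1 lower with the vessel score was 3 with TMM scaling and 0 without a filter, without the Slc17a7 libraries, in hexadecimal libraries and without the choroid plexus library. The 1 higher with the neuronal score was 2 with TMM scaling and 0 in hexadecimal libraries. The slope of Lama3 on the choroid plexus score was -0.03 in decimal libraries. The causes were not tested. No paired analysis was possible because the replicate numbers only name the libraries. Members near 1 CPM rest on few counts in the shallowest libraries.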
